A study of Mus musculus with 9 samples.

Results

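The p53 and Rb pathways were examined through 10 of the 18049 genes of an RNA-sequencing table. They were Trp53, its targets Cdkn1a, Mdm2 and Ccng1, the INK4 inhibitor genes Cdkn2a, Cdkn2b and Cdkn2c, the pocket protein genes Rb1 and Rbl1, and the cyclin gene Ccnd1. The genes were chosen by symbol, and 10 of 10 were found. All 10 were above the floor of 3 reads in each of the 9 libraries.

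The libraries came from 9 clones of mouse primary cells cultured from tumors (MPC). The donor WTg mice carried EL1-Luc/EL1-TAg, in which the promoter of pancreatic elastase I drives luciferase and the SV40 large T antigen, together with CAG-Mettl3, in which the CAG promoter drives the open reading frame of the m6A methyltransferase Mettl3. All 9 clones shared these transgenes, were labelled as fibroblasts of the pancreas with no treatment, and formed a single group without a control, although a protocol field of the labels names the drug NMS-P937. Colonies were picked with cloning cylinders after passage of attached cells, so each library represents a clone selected in culture, and the labels do not say which clones came from the same mouse. The elastase promoter is active in acinar cells, and the large T antigen RNA was not analysed here.

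p53, encoded by Trp53, is a transcription factor that is stabilized by DNA damage and other stress and activates genes that arrest the cell cycle or kill the cell. Rb1 and its relatives bind E2F transcription factors and hold back the genes of DNA replication until cyclin D and its partner kinases phosphorylate them, and the INK4 proteins inhibit those kinases. The SV40 large T antigen is known to bind both p53 and the pocket proteins, and losses of p53 and of the Cdkn2a locus are frequent in pancreatic cancer.

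The column names split the libraries by prefix into 1 library (A1), 4 libraries (B1 to B4) and 4 libraries (C1 to C4), and the meaning of the prefixes is not stated. Depth was 12198036 reads in A1 and between 16526375 and 20453901 reads in the others. Levels are normalized counts, that is, read counts multiplied by 1 factor per library, in which 1 read was worth 1.26 to 2.19. Xist, the RNA that coats the inactive X chromosome, was at 29664 to 32912 normalized counts in prefix B and at most 8.39 elsewhere. Y-linked genes were read only in prefixes A and C, so prefix and sex cannot be told apart. Clones of prefix B thus came from other mice than those of prefixes A and C, and clones of 1 prefix may share a mouse. A1 also had the highest Mettl3 level, 2184 normalized counts against 468 to 621 in the other 8 libraries. All 16 macrophage markers and 13 of 14 fibroblast markers were above the floor in every library, with summed levels of 586424 to 926796 and 383329 to 985499 normalized counts, while the epithelial marker Epcam had 0 reads in all 9. The epithelial markers Krt19 and Cdh1 were above the floor in every library, at 7.23 to 145 and 8.91 to 152 normalized counts, and the 6 epithelial markers listed summed to 20.3 to 314. The fibroblast label therefore covers libraries in which macrophage markers were also abundant. In such bulk samples, fewer cells of a type and less RNA per cell cannot be told apart. Of 6 acinar markers, 1 was above the floor in every library, the elastase gene Cela1, at 144 to 293 normalized counts. The acinar markers summed to 2415 normalized counts in C3 and to between 144 and 396 in the other 8 libraries. Whether the elastase promoter of the transgenes was active in these clones was not tested.

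Promoter windows, from 250 bases before to 50 bases after the transcription start, were taken from RefSeq (GRCm38.p6) for 8 of the 10 genes. Rb1 and Ccnd1 had no entry. The windows of 3 of them are shown because they hold matches to the motifs of p53 and of E2F, the factors at the end of each pathway. Capitals mark the matches, and all sequences run 5′ to 3′ on the strand of the gene. The Cdkn1a window (chr17:29090729-29091028, plus strand) belongs to the upstream of its 2 listed starts, the Ccng1 window is chr11:40755237-40755536 (minus strand) and the Rbl1 window is chr2:157204485-157204784 (minus strand).
Cdkn1a: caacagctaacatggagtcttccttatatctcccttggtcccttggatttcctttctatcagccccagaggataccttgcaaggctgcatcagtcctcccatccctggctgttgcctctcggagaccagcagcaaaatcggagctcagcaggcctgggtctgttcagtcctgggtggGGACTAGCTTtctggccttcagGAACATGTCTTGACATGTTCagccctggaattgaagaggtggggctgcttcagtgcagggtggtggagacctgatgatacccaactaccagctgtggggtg
Ccng1: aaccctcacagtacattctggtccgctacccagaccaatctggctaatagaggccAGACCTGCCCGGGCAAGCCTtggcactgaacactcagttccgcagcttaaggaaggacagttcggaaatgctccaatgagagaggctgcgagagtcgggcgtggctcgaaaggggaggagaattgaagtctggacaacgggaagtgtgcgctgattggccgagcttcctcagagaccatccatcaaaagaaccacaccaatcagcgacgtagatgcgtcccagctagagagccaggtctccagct
Rbl1: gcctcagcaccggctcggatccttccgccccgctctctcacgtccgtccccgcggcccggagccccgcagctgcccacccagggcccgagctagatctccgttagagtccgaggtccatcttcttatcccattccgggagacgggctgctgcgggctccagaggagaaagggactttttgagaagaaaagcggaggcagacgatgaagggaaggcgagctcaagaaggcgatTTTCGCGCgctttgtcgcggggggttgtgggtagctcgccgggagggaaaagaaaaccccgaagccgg
The capitals in Cdkn1a and Ccng1 are matches to the p53 response element, made of 2 half-sites of 10 bases with at most 13 bases between them and at most 1 mismatch over both. This criterion was chosen after the sequences were seen, and it was met in 1.09% of 32851 mouse windows and in 2 of the 8 genes with a window. Single half-sites without mismatch were in 8.36% of all windows and in 4 of the 8 genes, Trp53, Cdkn1a, Mdm2 and Ccng1. The capitals in Rbl1 are an E2F motif that starts 18 bases before the transcription start. The E2F motif was searched on both strands as TTTCCCGC, TTTCGCGC, TTTGCCGC and TTTGGCGC, and it was in 2.26% of all windows. It was found in Rbl1 and in the upstream window of Cdkn2a. These matches describe the letters only.

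Trp53 was the steadiest of the 10 genes. Its level was 1768 normalized counts in A1. In B1 to B4 it was 1695, 1814, 1859 and 1835, and in C1 to C4 it was 2115, 2190, 1821 and 1992. The highest library, C2, was 1.29 times the lowest, B1, and the mean was 1899 ± 165 (SD, n = 9). Its coefficient of variation was 8.69%, against a median of 17.1% over the 14705 genes whose mean reached 10 normalized counts, and counting error alone would give 2.79%. The pseudogene Trp53-ps was listed at 6.56 to 25.4 normalized counts, and reads shared between it and Trp53 could be split either way.

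The 3 p53 targets were read in all 9 clones, with coefficients of variation of 11.2% to 15.0%, under the median gene's 17.1%. Cdkn1a encodes p21, an inhibitor of cyclin-dependent kinases. Its level was 9020 normalized counts in A1, 7646, 7133, 6717 and 9223 in B1 to B4, and 8056, 8427, 6987 and 10082 in C1 to C4. The highest library was C4 and the lowest B3, and both prefixes spread over most of that range. The mean was 8143 ± 1141 (SD, n = 9).

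Mdm2, the ubiquitin ligase that marks p53 for degradation and is itself induced by p53, was at 3856 normalized counts in A1. It was at 3296, 2971, 3533 and 3773 in B1 to B4, and at 4121, 3450, 3099 and 3131 in C1 to C4. The extremes were C1 and B2, which differed 1.39-fold, and the mean was 3470 ± 388 (SD, n = 9). Ccng1 encodes cyclin G1, a p53 target that feeds back on Mdm2. Its level was 10572 normalized counts in A1, 8095, 7940, 8094 and 11454 in B1 to B4, and 10756, 8284, 8408 and 10036 in C1 to C4. The libraries A1, B4, C1 and C4 lay at 10036 and above and the other 5 between 7940 and 8408, so the gap ran within both prefixes.

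**Figure D1:**
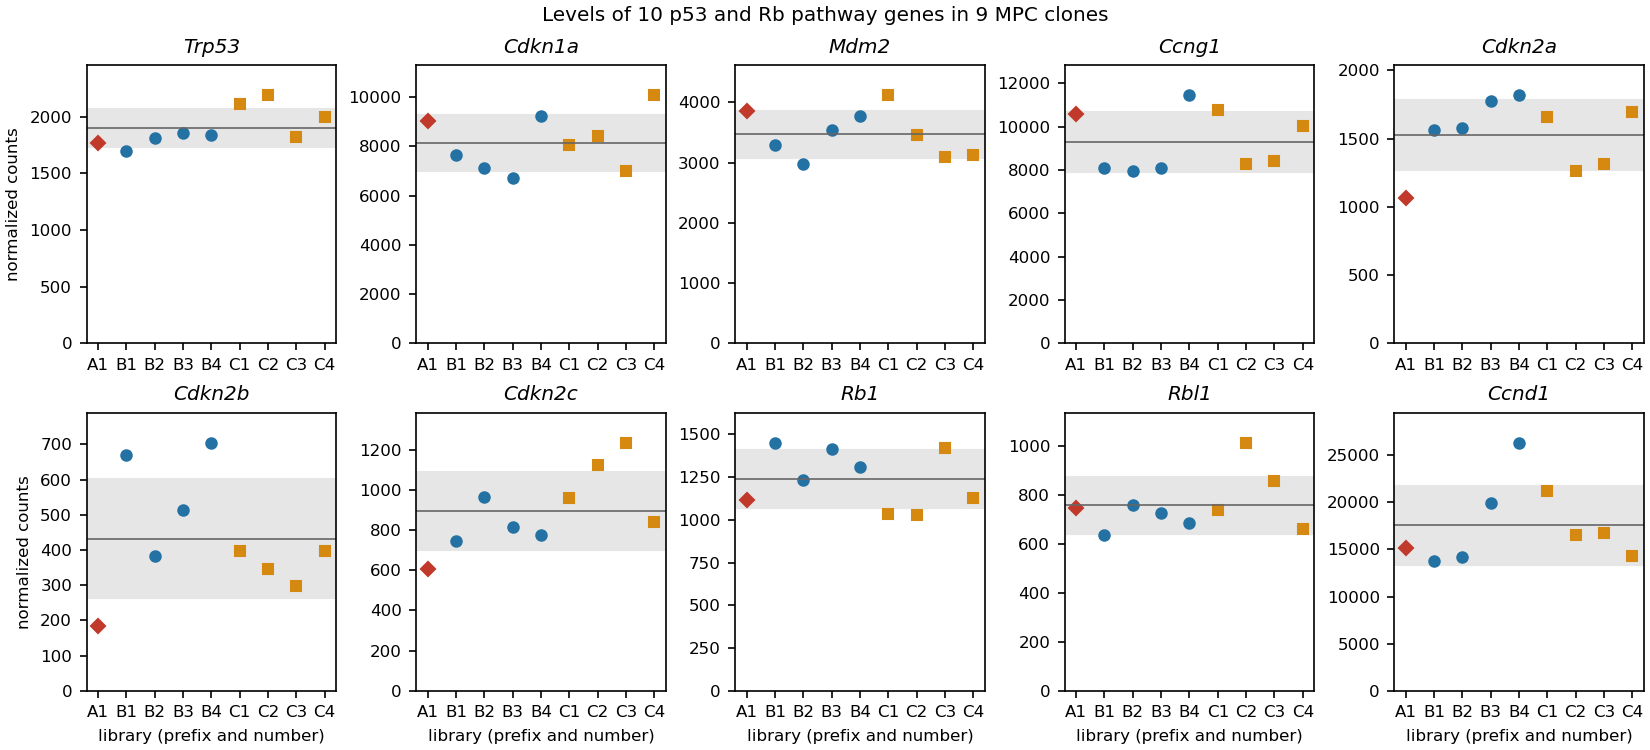
Normalized counts of the 10 genes in the 9 libraries, with prefix A as diamonds, prefix B as circles and prefix C as squares. The line is the mean of the 9 libraries and the grey band 1 SD to each side. A1 is the lowest library for Cdkn2a, Cdkn2b and Cdkn2c, and Trp53 has the narrowest band relative to its mean.

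The widest spread of the 10 was that of an INK4 gene, Cdkn2b, and A1 was the lowest library for all 3 INK4 genes. Cdkn2a gives rise to p16Ink4a, an inhibitor of Cdk4 and Cdk6, and from another first exon to p19Arf, which inhibits Mdm2. RefSeq lists 2 starts for it, and gene counts cannot tell the 2 products apart. Its level was 1061 normalized counts in A1, 1566, 1581, 1774 and 1820 in B1 to B4, and 1656, 1264, 1316 and 1693 in C1 to C4. A1 was the lowest library, and the mean was 1526 ± 256 (SD, n = 9).

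Cdkn2b encodes p15Ink4b, another inhibitor of Cdk4 and Cdk6, and its gene lies 11.7 kb from that of Cdkn2a on chromosome 4 (Cdkn2a chr4:89274473-89294619, Cdkn2b chr4:89306289-89311032, GRCm38.p6). It varied most of the 10. Its level was 184 normalized counts in A1, 669, 383, 514 and 705 in B1 to B4, and 398, 347, 297 and 397 in C1 to C4. A1 rested on 84 reads, with a 95% Wilson interval of 148 to 228 normalized counts, and the next lowest library, C3, had an interval of 259 to 339. The highest library, B4, was 3.84 times A1. The coefficient of variation was 39.2%, with 5.71% from counting error, and its SD of log2 values was at percentile 82.8 of those 14705 genes. The lncRNA Gm12610 overlaps Cdkn2b along its whole span, but it had at most 3 reads in any library.

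Cdkn2c encodes p18Ink4c, another INK4 inhibitor, on the same chromosome but outside the Cdkn2a locus. Its level was 608 normalized counts in A1, 746, 963, 813 and 773 in B1 to B4, and 960, 1122, 1235 and 839 in C1 to C4. A1 was again the lowest and C3 the highest, at a ratio of 2.03.

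A1 was thus the lowest of 9 for 3 of the 10 genes and the highest for 0. Over the same 14705 genes, A1 was the lowest for 20.4% and the highest for 19.9%, so the count of 3 is near the background. The levels in A1 were 0.67, 0.40 and 0.65 times the mean of the other 8 libraries for Cdkn2a, Cdkn2b and Cdkn2c. Cdkn2d, the remaining INK4 gene and named after its values were seen, did not share the low level, with 414 normalized counts in A1 against 246 to 460 in the other 8. A1 was a single library, so its difference from the rest has no replicate check. Among the 20 other p53 targets on the list, A1 was the highest library for 6 and the lowest for 0. The largest of these ratios was that of Btg2, an antiproliferative gene also named after its values were seen, at 2304 normalized counts in A1 against 595 to 1327.

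The pocket protein genes varied less than the median gene, with coefficients of variation of 13.7% for Rb1 and 15.2% for Rbl1. Rb1 encodes the retinoblastoma protein. Its level was 1116 normalized counts in A1, 1452, 1233, 1415 and 1307 in B1 to B4, and 1035, 1027, 1423 and 1130 in C1 to C4. The mean was 1238 ± 169 (SD, n = 9), and the highest library, B1, was 1.41 times the lowest, C2. The gene Lpar6, which lies within the span of Rb1, was itself at 582 to 2584 normalized counts.

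Rbl1 encodes p107, a pocket protein whose own promoter holds the E2F match printed above. Its level was 748 normalized counts in A1, 635, 758, 726 and 685 in B1 to B4, and 737, 1015, 856 and 663 in C1 to C4. C2 was the highest and B1 the lowest, at a ratio of 1.60. The 95% Wilson intervals of these libraries, 940 to 1096 and 582 to 693 normalized counts, did not overlap. These were the same libraries that were at the ends for proliferation genes, as described further on.

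Ccnd1 encodes cyclin D1, the growth factor responsive partner of Cdk4 and Cdk6. Its level was 15114 normalized counts in A1, 13720, 14194, 19921 and 26324 in B1 to B4, and 21214, 16532, 16764 and 14339 in C1 to C4. The whole range lay within prefix B, from B1 to B4, at a ratio of 1.92, and the mean was 17569 ± 4181 (SD, n = 9). LTO1, which overlaps 818 bases of Ccnd1, was at 479 to 666 normalized counts.

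B4 was the highest library for 4 of the 10 genes, Ccng1, Cdkn2a, Cdkn2b and Ccnd1, a count made after the values were seen, and for 6.36% of the 14705 genes. For Cdkn2a and Cdkn2b the 95% Wilson interval of B4 overlapped that of the next library, with 649 to 766 normalized counts in B4 and 615 to 729 in B1 for Cdkn2b. As a single clone, B4 has no replicate check.

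The prefixes were then compared, 4 libraries each. Of the 14737 genes tested with limma, 34 passed at an adjusted p under 0.05 (0.231%), with 13 higher and 21 lower in prefix B. All 5 sex-linked genes checked were among the 34, with Xist higher and 4 Y-linked genes lower in prefix B. Of the 10 genes, 0 passed, and 3 had an unadjusted p under 0.05, against 2956 of the 14737 genes tested. For 0 of the 10 did the levels in prefixes B and C fail to overlap, against 10.3% of the 14705 genes. The count over all genes rested on single libraries, with 271 called without C3 and 8 without B1, while 0 of the 10 passed in any of these fits. C3 was also the library with the highest summed acinar level, 2415 normalized counts, and the part of these markers in the count was not tested. When voom weights were used with limma, 23 genes and again 0 of the 10 passed.

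The differences of the 10 genes ran from -0.33 to 0.62 on the log2 scale, with a median of -0.05 against 0.02 over all genes tested. Cdkn2b had the largest. Its mean was 568 ± 149 (SD, n = 4) normalized counts in prefix B and 360 ± 48.5 (SD, n = 4) in prefix C. The log2 difference was 0.62, with a 95% interval of 0.17 to 1.08 and an adjusted p of 0.17 by limma. Cdkn2c had the opposite sign, with 824 ± 96.7 (SD, n = 4) against 1039 ± 175 (SD, n = 4) normalized counts. Its log2 difference was -0.33, with an interval of -0.63 to -0.02 and an adjusted p of 0.23 by limma. Trp53 was at 1801 ± 72.9 (SD, n = 4) against 2030 ± 161 (SD, n = 4) normalized counts, with a log2 difference of -0.17 and an adjusted p of 0.23 by limma. The other 7 genes had adjusted p-values between 0.27 and 0.93. Their 95% intervals all held 0, such as -0.27 to 0.23 for Mdm2 and -0.43 to 0.57 for Ccnd1, so differences of these sizes in either direction could not be told from 0.

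**Figure D2:**
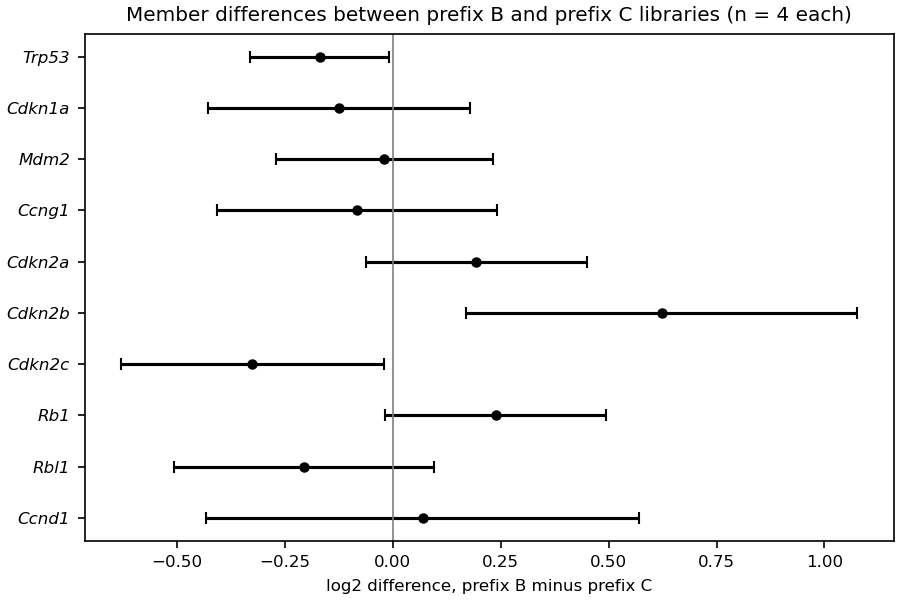
Log2 difference between the means of prefix B and prefix C libraries (4 each) for the 10 genes, from limma, with 95% confidence intervals as bars. The intervals of Cdkn2b, Cdkn2c and Trp53 leave out 0 before adjustment, and 0 of the 10 genes passed after it.

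The rest of the pathways gave 0 called genes as well, and their medians differed from list to list. For the counts at an unadjusted p under 0.05 by limma, the background is 2956 of all 14737 genes tested. For the counts by direction, it is 7800 genes higher and 6937 lower in prefix B. Of the 10 p53 regulators tested, 7 were higher and 3 lower in prefix B, with a median of 0.10, and 3 had an unadjusted p under 0.05. Chek1, a checkpoint kinase gene, had -0.56 and Ep300, an acetyltransferase gene, 0.32, while Usp7 and Atm were at -0.02 and 0.06. Trp63 and Trp73, the relatives of Trp53, were not in the table.

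Of the 20 other p53 targets, 8 were higher and 12 lower in prefix B, with a median of -0.08 and 8 at an unadjusted p under 0.05. Perp, a gene of cell junctions, had a log2 difference of 2.42 at 1.56 to 130 normalized counts, and Gdf15, a secreted stress factor, had -1.18. Sesn2 and Pmaip1 were at 0.01 and -0.04. The targets therefore did not lie on one side.

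Of the 21 other Rb pathway genes, 5 were higher and 16 lower in prefix B, with a median of -0.18 and 9 at an unadjusted p under 0.05. The cyclin E genes Ccne1 and Ccne2 had the largest differences, both -0.83, and E2f3 and Cdk6 were at 0.02 and -0.03. All 13 genes of a proliferation list were lower in prefix B, with a median of -0.56, 5 at an unadjusted p under 0.05 and 0 called. In that list Rrm2, a subunit of ribonucleotide reductase, had -1.19 and Ccnb1, cyclin B1, -1.05, while Pcna and Mcm6 were at -0.03 and -0.18. Of the cell type markers, 16 of 16 macrophage markers were higher and 11 of 14 fibroblast markers lower in prefix B, with medians of 0.32 and -0.65. By limma, 8 of the 16 macrophage and 7 of the 14 fibroblast markers had an unadjusted p under 0.05, and 0 were called. Over all genes tested, that unadjusted count was 2956 of 14737. The summed macrophage level was 746149 to 854779 normalized counts in prefix B and 586424 to 926796 in prefix C. The summed fibroblast level was 383329 to 608359 in prefix B and 547850 to 985499 in prefix C. The part of these markers in the differences of the 10 genes was not tested.

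**Figure D3:**
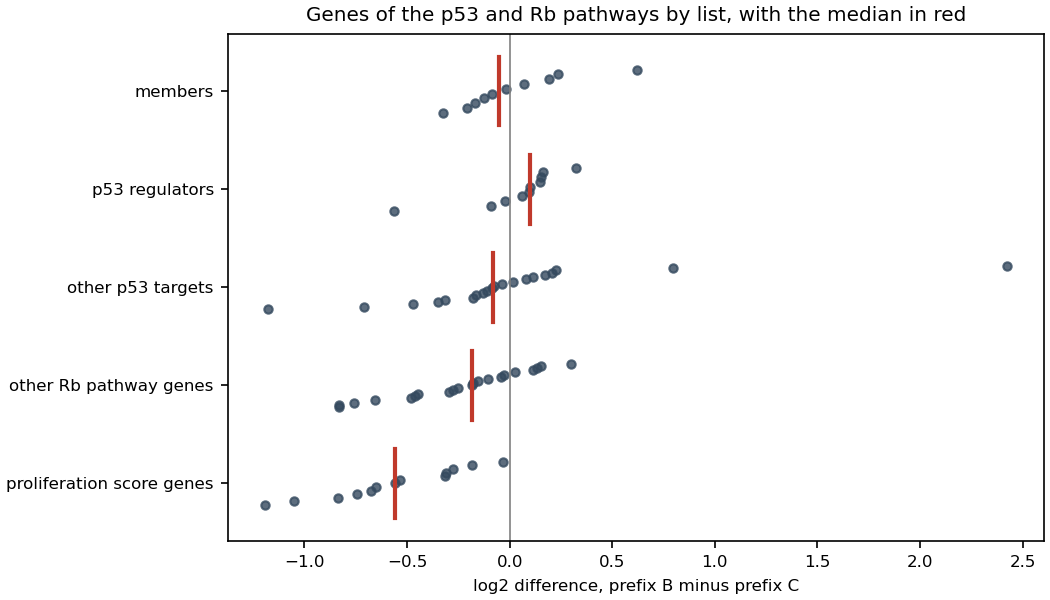
Log2 difference between prefix B and prefix C (4 libraries each) for each gene of the 10 (members) and of 4 lists, with the median of each list as a red bar. The 13 proliferation genes all lie below 0, and the medians of the other rows lie between -0.18 and 0.10.

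To ask which of the genes varied together over the clones, 9 relations were computed on log2 values, with exact two-sided permutation tests and Benjamini-Hochberg adjustment over the 9. A proliferation score was used for 4 of them. It is the mean z-score of 13 genes of replication and mitosis, of which none is among the 10, and it ran from -1.58 in B1 to 1.46 in C2. B1 was the lowest library for 12 of its 13 genes and C2 the highest for 11.

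Rbl1 and the proliferation score were related over the 9 libraries by Pearson's r but not by Spearman's rho after adjustment. Pearson's r was 0.858 (exact permutation p = 0.0024, adjusted p = 0.015, n = 9) and Spearman's rho was 0.850 (exact permutation p = 0.0061, adjusted p = 0.055). Without B1 and C2, the libraries farthest from the median score, r was 0.664 (exact permutation p = 0.094, adjusted p = 0.42, n = 7), an alternative added after the data were seen. The call was thus lost without these libraries, in fewer libraries and a narrower range of the score. Without C2 and C3, the libraries farthest from the median Rbl1 level, r was 0.878 (exact permutation p = 0.0071, adjusted p = 0.032, n = 7). Centred within prefixes B and C, r was 0.902 in the 8 libraries (exact permutation p = 0.0069, adjusted p = 0.063). Cell type markers also differed between libraries at the ends of the score. The summed fibroblast level was 985499 normalized counts in C2, 825460 in A1, the library with the second highest score, and 484068 in B1, and the summed macrophage level was 586424, 709000 and 835756 in the same libraries. The order was not kept over all libraries. The lowest summed fibroblast level, 383329, was in B3, with a score of -0.31. The highest summed macrophage level, 926796, was in C4, with a score of -0.61, and Lyz2 alone was 577311 of it. Fn1 alone was 432514 of the fibroblast sum in C2. The part of these markers in the relation was not tested. The E2F motif was in the windows of 4 of the 12 score genes with a window, Cdk1, Mcm3, Mcm5 and Mcm6. It was in those of 5 of 16 other Rb pathway genes and in 2.26% of all windows. Whether the motif has a part in the relation was not tested.

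Cdkn2c did not pass over all 9 libraries, with an r of 0.389 (exact permutation p = 0.30, adjusted p = 0.54) and a rho of 0.417 (adjusted p = 0.49 by exact permutation). A1 lay apart, with the second highest score and the lowest Cdkn2c level. Without A1, r was 0.841 (exact permutation p = 0.0074, adjusted p = 0.033, n = 8) and rho 0.857 (adjusted p = 0.048 by exact permutation). Centred within prefixes, r was 0.723 (exact permutation p = 0.076, adjusted p = 0.23) in the same 8 libraries. Without B1 and C2 but with A1, r was 0.0087 (adjusted p = 0.99 by exact permutation, n = 7). The call thus changed with A1, and it was lost again when the prefixes were centred. Cdkn1a and Ccnd1 had an r of 0.018 and 0.036 with the score (adjusted p = 0.96 for both by exact permutation), and rho was -0.03 and 0.17 (adjusted p = 0.95 and 0.76).

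Cdkn2a and Cdkn2b, the neighbours on chromosome 4, were related over the 9 libraries by Pearson's r but not by Spearman's rho after adjustment. Pearson's r was 0.843 (exact permutation p = 0.0034, adjusted p = 0.015, n = 9) and rho was 0.800 (exact permutation p = 0.014, adjusted p = 0.062). The call of this relation rested on A1, the lowest library for both genes. Without A1, r was 0.676 (exact permutation p = 0.067, adjusted p = 0.15), without the 2 libraries farthest from the median Cdkn2a level it was 0.652 (adjusted p = 0.18 by exact permutation), and centred within prefixes it was 0.483 (exact permutation p = 0.16, adjusted p = 0.28).

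The p53 targets were paired among themselves. Cdkn1a and Ccng1 had an r of 0.740 (exact permutation p = 0.031, adjusted p = 0.092) and a rho of 0.683 (exact permutation p = 0.050, adjusted p = 0.15), with 0.694 when centred within prefixes (adjusted p = 0.23 by exact permutation). Mdm2 and Ccng1 had an r of 0.683 (exact permutation p = 0.048, adjusted p = 0.11) and a rho of 0.650 (adjusted p = 0.15), and 0.636 when centred within prefixes. Neither passed after adjustment. Cdkn1a and Mdm2 had an r of 0.280 and Trp53 and Cdkn1a one of 0.274 (adjusted p = 0.60 for both by exact permutation), with a rho of 0.30 and 0.217. Without the 2 libraries farthest from the median Cdkn1a level, the r of Cdkn1a with Mdm2 was 0.774 (adjusted p = 0.15 by exact permutation, n = 7).

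**Figure D4:**
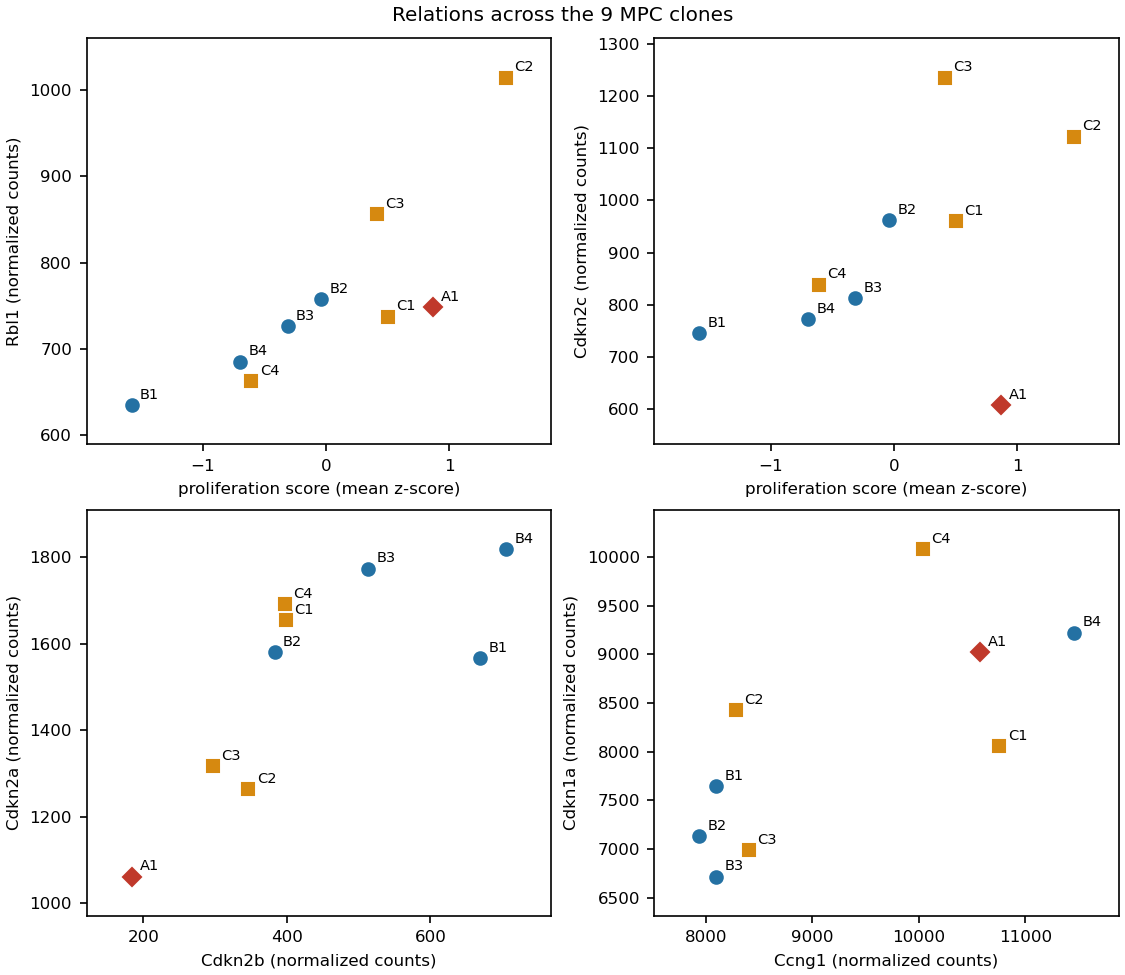
The plots show 4 of the 9 relations over the 9 libraries, with prefix A as a diamond, prefix B as circles and prefix C as squares. Levels are in normalized counts and the proliferation score is a mean z-score. The r of Rbl1 with the score is 0.858, with B1 and C2 at the ends, A1 lies apart in the plot of Cdkn2c, and A1 is at the low end of both axes in the plot of Cdkn2a against Cdkn2b.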

How the data were processed

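RNA of 9 MPC clones was sequenced from stranded mRNA libraries. The submitters' processing notes name FastQC 0.11.9, STAR 2.7.10, RSEM 1.3.3 and the build GRCm38, without roles. The authors deposited log2 values, which are read counts times 1 factor per library with an offset of 4. Undoing this gave normalized counts, and whole reads were recovered for 100% of nonzero values under 1000 reads, within 0.05 reads beside the rounding of the deposited values. In the same table, 6 columns come from other series and were not used.

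The genes and lists were chosen with earlier results of these data known, and all 10 genes are named. Of each list, the 2 genes with the largest and the 2 with the smallest absolute difference between prefixes are named. Prefixes were compared with limma 3.58.1 (lmFit, eBayes with trend, R 4.3.3) on the deposited log2 values of genes whose mean over the 8 libraries reached 10 normalized counts, with Benjamini-Hochberg adjustment over 14737 genes at 0.05. The fit was tested on simulated data. Relations used exact permutation with numpy 2.4.6 and ranks from scipy 1.17.1. It ran over 362880 pairings of 9 libraries and 40320 of 8. Centred within prefixes there were only 576 pairings, so the smallest p that this exact permutation could give was 0.0017. Wilson intervals (95%) and the floor of 3 reads cover counting error only. The labels do not say that clones of 1 prefix came from separate mice, so limma's p-values rest on the spread between these libraries. Exact permutations not done within prefixes treat all libraries as interchangeable. The prefixes went with sex, however, and clones of 1 prefix may share a mouse, which these p-values do not take into account. Alternatives were other scalings, offsets, filters, voom, no trend and leaving out libraries.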

Additional observations from a re-analysis of the deposited data

How the results depend on the processing

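All 10 genes stayed uncalled between prefixes in all 15 alternatives (adjusted p 0.071 to 0.98 by limma). The count of called genes over the table, 34, ranged from 8 to 271 with each library left out in turn, was highest without C3 and fell under 34 without any other library (B1 8, B2 15, B3 11, B4 15, C1 24, C2 14, C4 9). With a library left out, the log2 difference of Mdm2 ranged from -0.073 to 0.069, turning to 0.04 without B2 and 0.069 without C1, and that of Ccnd1 ranged from -0.12 to 0.196, turning to -0.12 without B4 and -0.0138 without C4. Among the relations, r of Cdkn2a with Cdkn2b lost its call without A1 (0.676), without the 2 libraries farthest by Cdkn2a (0.652) or, an alternative added after the data were seen, by Cdkn2b (0.57) and centred within prefixes (0.483). The r of Rbl1 with the score missed the threshold when centred (0.902) and without the 2 libraries farthest by score (0.664, added after the data were seen), and its rho missed it in the main setting and in all alternatives but the one without A1 (adjusted p 0.041 to 0.49). For Cdkn2c with the score, r passed without A1 (0.841) and without the 2 farthest by its own level (0.947). These 2 were C3 and A1, so both settings left out A1. In the second setting rho was 0.929 and missed the threshold (adjusted p = 0.061 by exact permutation). The r of Cdkn1a with the score turned negative with total read scaling (-0.04), without A1 (-0.0974), centred (-0.42) and without the 2 farthest by score (-0.23), and that of Ccnd1 with a score without z-scores (-0.0204) and without the 2 farthest by score (-0.296). The cause was not tested. Mean levels moved by less than 1 SD under the 2 other scalings and without A1. Levels per kilobase were not run, so levels of different genes are not compared. Depth limits Cdkn2b most, at 84 to 559 reads. No paired analysis was possible because the labels put every clone in 1 group.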
